A study of Homo sapiens with 4 samples.

Results

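The 10 genes studied here belong to the transforming growth factor beta (TGF-beta) pathway, and their RNA was followed in the glioblastoma cell lines U251 and U87. They were selected by gene name and comprise the ligands TGFB1, TGFB2 and INHBA, the latent TGF-beta binding proteins LTBP1 and LTBP2, the receptors TGFBR1 and TGFBR2, and the intracellular mediators SMAD2, SMAD3 and SMAD7. All 10 of 10 names were found, each as 1 gene, among the 58735 genes of the expression tables. For each line, 1 library was Control and 1 was made after 48 h of brusatol (Bru), a plant-derived quassinoid known as an inhibitor of the NRF2 pathway, given at the concentration that lowered viability to the midpoint of its range. The 4 groups were U251 Control, U251 Bru, U87 Control and U87 Bru, with 1 library in each. The labels name no vehicle for Control, and no transgene, knockdown or other agent is given for any of the 4 groups. U251 and U87 are established adherent lines, so that no host tissue or immune cells are present.

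TGF-beta signalling starts outside the cell. The ligands are secreted as latent complexes that LTBPs tether to the extracellular matrix, and once released they bind TGFBR2, which recruits and phosphorylates TGFBR1. TGFBR1 then phosphorylates SMAD2 and SMAD3 on serines at their very end, and these enter the nucleus with SMAD4, while SMAD7, itself a target gene of the pathway, blocks the receptor. In glioblastoma the pathway is known for its part in invasion, in immune suppression and in the upkeep of stem-like cells, and TGFB2 was first characterised as a T cell suppressor factor from glioblastoma cells.

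The ends of the SMAD coding sequences are shown because they separate the SMADs that the receptor activates from the inhibitory one. Each line gives the last 30 coding bases, 5′ to 3′, with the stop codon, from GENCODE release 29 (GRCh38), and capitals mark the last 4 codons before the stop. They lie in the last exon of each transcript, on chr18:47841827-47841856 (minus strand, exon 11 of 11) for SMAD2, on chr15:67190507-67190536 (plus strand, exon 9 of 9) for SMAD3 and on chr18:48921372-48921401 (minus strand, exon 4 of 4) for SMAD7. Of the 4 codons, 3 encode serine in SMAD2 and in SMAD3, and 1 does so in SMAD7.
SMAD2: ccttcagtgcgttgcTCAAGCATGTCAtaa
SMAD3: ccaagcatccgctgtTCCAGTGTGTCTtag
SMAD7: tggctagaggtcatcTTCAACAGCCGGtag

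The promoters of 4 members are shown because TGFB2 and SMAD7 had higher levels, and LTBP1 and LTBP2 lower levels, in the Bru library of both lines, in U251 within counting error for TGFB2. Each line gives the 250 bases before the RefSeq start nearest to the gene start in the tables (GRCh38.p14), on the strand of the gene. That start lies upstream of the gene start in the tables for TGFB2 and LTBP1 and downstream of it for SMAD7 and LTBP2. The SMAD7 window therefore lies wholly, and the LTBP2 window partly, inside the gene as annotated in the tables. The motifs searched on both strands were the SMAD box CAGAC, the E-box CACGTG and the cAMP response element TGACGTCA, and capitals mark the matches. The windows are chr1:218345086-218345335 (plus strand) for TGFB2, chr18:48950966-48951215 (minus strand) for SMAD7, chr2:32946703-32946952 (plus strand) for LTBP1 and chr14:74612238-74612487 (minus strand) for LTBP2.
TGFB2: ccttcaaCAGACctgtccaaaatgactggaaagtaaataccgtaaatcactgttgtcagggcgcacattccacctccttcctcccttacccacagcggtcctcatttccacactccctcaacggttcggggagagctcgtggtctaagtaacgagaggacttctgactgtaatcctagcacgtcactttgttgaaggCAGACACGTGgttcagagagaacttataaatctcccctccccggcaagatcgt
SMAD7: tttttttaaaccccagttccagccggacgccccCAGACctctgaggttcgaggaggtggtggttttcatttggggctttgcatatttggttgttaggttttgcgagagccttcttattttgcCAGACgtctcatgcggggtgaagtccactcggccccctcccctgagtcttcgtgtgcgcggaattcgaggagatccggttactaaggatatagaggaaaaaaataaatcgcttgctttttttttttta
LTBP1: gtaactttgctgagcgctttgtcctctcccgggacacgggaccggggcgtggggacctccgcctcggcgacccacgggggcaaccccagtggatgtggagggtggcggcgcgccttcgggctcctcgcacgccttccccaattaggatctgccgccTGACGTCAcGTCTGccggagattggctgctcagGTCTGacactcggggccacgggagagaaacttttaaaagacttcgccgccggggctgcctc
LTBP2: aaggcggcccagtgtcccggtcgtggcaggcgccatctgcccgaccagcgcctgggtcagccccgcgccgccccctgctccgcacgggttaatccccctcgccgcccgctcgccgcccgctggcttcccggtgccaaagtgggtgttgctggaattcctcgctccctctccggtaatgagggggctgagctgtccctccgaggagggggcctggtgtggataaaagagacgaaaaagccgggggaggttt
TGFB2, SMAD7 and LTBP1 each held 2 SMAD boxes, and LTBP2 held no match of the 3 motifs. Among the windows of the 10 members, 4 held a SMAD box, where 38.0% of the 35116 RefSeq windows of the same length did. The second SMAD box of TGFB2 begins 53 bases before the start and shares 1 base with an E-box, a motif found in 6.34% of windows. LTBP1 was the member with the cAMP response element, 94 bases before the start, which 1.65% of windows held. These matches describe the letters in the windows and are not binding sites.

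The values are FPKM, fragments scaled by gene length and sequencing depth. Whole fragments, called reads, were recovered from them, and they added up to between 17083896 and 21453561 per library. The ratio of Bru to Control is given with a 95% exact interval from the reads. Such an interval covers counting error only, and with 1 library per group no difference has a replicate check, so that a difference between 2 libraries cannot be told apart from a difference between the conditions. In bulk RNA, fewer expressing cells and less RNA per cell cannot be told apart either. Of the glioblastoma markers, VIM (FPKM from 606 to 701) and CD44 (from 94.5 to 125) were abundant in the 4 libraries. NES, an intermediate filament of neural progenitors, stood at 125 FPKM in U251 Control and 50.6 in Bru and at 1.46 and 0.569 in U87, and the matrix protein TNC at 34.1 and 21.4 and at 81.5 and 61.1, and the part of these markers in the members' levels was not tested. SOX2 was at 129 and 91.2 in U251 and at or near 0 in U87, and GFAP lay between 0.147 and 2.42. The remaining markers of the list were low in each library, with OLIG2 at most 1.05 (U87 Bru), CHI3L1 at most 0.714 (U87 Control) and S100B at most 0.296 (U251 Control). The summed FPKM of 5 blood cell markers lay between 0.0118 and 0.297 and that of 4 epithelial markers between 0.0377 and 0.360, while 4 endothelial markers summed to between 0.891 and 4.42, most of it from KDR in U251.

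Averaged over the 4 libraries, the FPKM of 9 of the 10 members was 1 or more, and these were compared with the 12949 genes that passed the same limit. INHBA did not pass it, and SMAD2 passed it through U87, since its U251 libraries averaged under 1. In neither line did one of the 9 pass a 2-fold change (an absolute log2 ratio of FPKM + 0.1 above 1): 0 of the 9 were higher and 0 lower past it. Of all genes tested, 3.36% were higher and 5.44% lower past this limit in U251, and 1.92% were higher and 1.41% lower in U87. Below that limit, 6 of the 9 members had a log2 ratio under 0 in both lines (37.5% of all genes), 2 had one above 0 in both (28.1%) and 1 had opposite signs (34.4%, with genes at a ratio of 0 in a line included). The median log2 ratio of the 9 was -0.27 in U251 and -0.11 in U87, beside -0.03 and -0.04 for all genes.

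**Figure D1:**
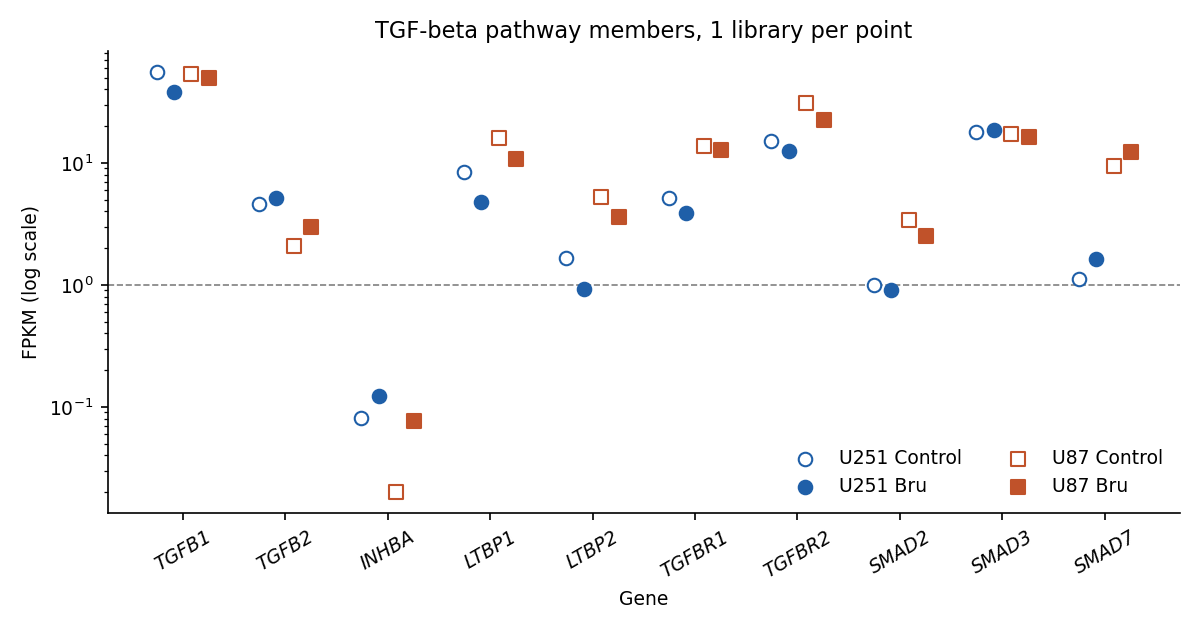
FPKM on a log axis (vertical) of the 10 members (horizontal) in the 4 libraries, 1 point per library, with blue circles for U251, orange squares for U87, open symbols for Control and filled symbols for Bru. The dashed line marks an FPKM of 1, and all 4 points of INHBA lie under it while TGFB1 lies between 38.4 and 55.8.

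TGFB1 (ENSG00000105329, chromosome 19 from 41301587 to 41353911, minus strand), the most widely expressed TGF-beta ligand, was the member with the highest FPKM in each library. U251 Control held 55.8 FPKM and U251 Bru 38.4, while U87 Control held 53.4 and U87 Bru 49.7. Thus the Control levels of the lines were close, and U251 Bru stood below the other 3 libraries. The U251 Bru library had 0.687 times the Control level, a log2 ratio of -0.54 (95% interval without a pseudocount from -0.62 to -0.47), and 17.4% of all genes had a lower log2 ratio. In U87 the log2 ratio of TGFB1 was -0.10 (from -0.18 to -0.03), which included 0 once the reads were scaled by their total (from -0.14 to 0.01). The difference of the log2 ratios between lines was -0.44 for TGFB1 (95% exact conditional interval from -0.54 to -0.33), the largest difference among the 9 members. On the genome TGFB1 overlaps HNRNPUL1, CCDC97, TMEM91 and AC011462.1 on the other strand. The strand setting of the counting is not given in the sources used here, so reads in the overlaps could not be assigned with certainty. In U251, HNRNPUL1 went from 12505 reads in Control to 8778 in Bru and CCDC97 the other way, from 949 to 1249, and their part in the level of TGFB1 was not tested.

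TGFB2 (ENSG00000092969, chromosome 1 from 218346235 to 218444619, plus strand) moved the other way. In U251 it went from 4.60 FPKM in Control to 5.12 in Bru and in U87 from 2.07 to 2.96, so that both Bru libraries lay above the Control of their line and both U251 libraries above both U87 libraries. In U87 the 193 reads of Control and 265 of Bru gave a log2 ratio of 0.49 (interval without a pseudocount from 0.24 to 0.79), and 94.1% of all genes had a lower one. In U251 the log2 ratio of TGFB2 was 0.15, and its interval, from -0.03 to 0.34, included 0. It excluded 0 when the reads were scaled by their total (from 0.06 to 0.43). The difference between lines was -0.36 for TGFB2 (from -0.69 to -0.03).

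INHBA (ENSG00000122641, chromosome 7 from 41667168 to 41705834, minus strand) encodes the beta A subunit of activin A, which signals through the same SMADs by its own receptors. The U251 libraries had 14 (Control) and 19 (Bru) reads of it and the U87 libraries 3 and 11, FPKM values between 0.0200 and 0.123. INHBA was thus close to the detection limit in each library. The log2 ratio from reads was 0.62 in U251 with an interval from -0.45 to 1.73, so that too few reads were available to detect a difference. In U87 it was 1.93 for INHBA with an interval from 0.01 to 4.41.

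Within a library, the FPKM ratio of 2 genes does not depend on how libraries are scaled to each other. It does depend on the gene lengths used, which the intervals do not cover. TGFB2 stood at 0.0824 of TGFB1 in U251 Control (95% exact interval from 0.0749 to 0.0905) and at 0.134 in U251 Bru (from 0.121 to 0.147). In U87 it went from 0.0388 (from 0.0334 to 0.0449) to 0.0595 (from 0.0522 to 0.0675). The TGFB2 to TGFB1 ratio was thereby 1.62 times as high in Bru as in Control in U251 (from 1.41 to 1.86) and 1.53 times in U87 (from 1.26 to 1.87), and these intervals of the lines overlap. With the longest coding transcript for both genes, an unplanned alternative, the ratio was 0.0718 in U251 Control and 0.0338 in U87 Control.

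LTBP1 and LTBP2 were the members with the lowest log2 ratios in both lines. LTBP1 (ENSG00000049323, chromosome 2 from 32946972 to 33399509, plus strand), which binds the latent ligand covalently and anchors it in the matrix, stood at 8.45 FPKM in U251 Control against 4.78 in Bru, and at 16.0 in U87 Control against 10.8 in Bru. Its level in Bru was 0.565 times Control in U251 (interval from 0.514 to 0.622) and 0.677 times in U87 (from 0.632 to 0.725). The corresponding log2 ratios of LTBP1 on FPKM + 0.1 were -0.81 and -0.56, and 8.77% and 5.04% of all genes had lower ones.

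LTBP2 (ENSG00000119681, chromosome 14 from 74498170 to 74612378, minus strand) belongs to the same family but is a matrix microfibril protein that does not bind latent TGF-beta. LTBP2 stood at 1.65 FPKM in U251 Control against 0.926 in Bru, and at 5.28 in U87 Control against 3.62 in Bru. LTBP2 in Bru was 0.560 times Control in U251 (from 0.460 to 0.681) and 0.685 times in U87 (from 0.616 to 0.762). Both genes were therefore lower in the Bru library of each line and higher in U87 than in U251. Their ratio to each other hardly moved. LTBP2 stood at 0.195 of LTBP1 in the Control and 0.194 in the Bru library of U251, and at 0.331 and 0.335 in those of U87. The change of that ratio was 0.991-fold in U251 (from 0.795 to 1.23) and 1.01-fold in U87 (from 0.891 to 1.15), so that a difference between the LTBP2 and LTBP1 responses was not detectable at this depth.

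TGFBR1 (ENSG00000106799, chromosome 9 from 99104038 to 99154192, plus strand), the type I receptor kinase, went from 5.17 FPKM to 3.89 with Bru in U251 and from 13.8 to 12.8 in U87. TGFBR2 (ENSG00000163513, chromosome 3 from 30606502 to 30694142, plus strand), the type II receptor kinase that binds the ligand first, went from 15.0 FPKM to 12.4 in U251 and from 31.0 to 22.5 in U87. Both receptors were lower in the Bru library of each line, and all 4 U87 values lay above the U251 values of the same gene. The receptor with the lower log2 ratio was TGFBR1 in U251 and TGFBR2 in U87. In U251 TGFBR1 had a log2 ratio of -0.40 (interval without a pseudocount from -0.58 to -0.24) and TGFBR2 one of -0.27 (from -0.39 to -0.16). In U87 TGFBR1 had a log2 ratio of -0.11 (from -0.21 to -0.01, and from -0.17 to 0.03 with reads scaled by their total) and TGFBR2 one of -0.46 (from -0.55 to -0.37). The difference between lines was -0.30 for TGFBR1 (from -0.50 to -0.11) and 0.19 for TGFBR2 (from 0.05 to 0.33).

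The TGFBR2 to TGFBR1 ratio was 2.90 in Control and 3.19 in Bru of U251, a change of 1.10-fold whose interval, from 0.956 to 1.27, included 1. In U87 the same ratio went from 2.25 in Control to 1.76 in Bru, a change of 0.783-fold (from 0.714 to 0.858). The intervals of the lines do not overlap.

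SMAD2 (ENSG00000175387, chromosome 18 from 47808957 to 47931146, minus strand) and SMAD3 (ENSG00000166949, chromosome 15 from 67063763 to 67195195, plus strand) are the mediators that TGFBR1 activates. SMAD3 was nearly level across the study, at 18.003 FPKM in the Control and 18.8 in the Bru library of U251 and at 17.1 and 16.3 in those of U87. Its log2 ratio was 0.06 in U251 (interval without a pseudocount from -0.01 to 0.13) and -0.07 in U87 (from -0.15 to 0.01), and both intervals include 0. In U251 the SMAD3 interval excluded 0 under 4 of the 5 other scalings, and it ran from 0.08 to 0.22 with reads scaled by their total. The difference between lines was 0.13 for SMAD3 (from 0.03 to 0.23).

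SMAD2 went from 0.998 FPKM in Control to 0.904 in Bru in U251, and from 3.37 to 2.54 in U87. The U87 libraries thus stood above the U251 libraries, and in U87 the lower level in Bru was beyond counting error. There the log2 ratio of SMAD2 was -0.40 (interval without a pseudocount from -0.50 to -0.32), while in U251 it was -0.13 (from -0.30 to 0.01). The difference between lines was 0.27 for SMAD2 (from 0.09 to 0.45).

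The SMAD3 to SMAD2 ratio went from 18.04 in Control to 20.8 in Bru in U251 and from 5.08 to 6.43 in U87, so that SMAD3 was the more abundant in each library. The change of the ratio with Bru was 1.15-fold in U251 (from 1.02 to 1.30) and 1.27-fold in U87 (from 1.16 to 1.38). The size of the SMAD3 to SMAD2 ratio rests on the gene length used. The tables scale SMAD2 to 36366 bases, the union of its annotated exons, most of which comes from 1 transcript of 34526 bases, while the next longest coding transcript has 12075 bases. With SMAD2 scaled to that transcript and SMAD3 to its longest coding transcript of 6247 bases, an alternative chosen after the values were seen, the ratio was 8.74 in U251 Control and 2.46 in U87 Control. With the longest coding transcript for both genes it was 24.99 and 7.04. Which SMAD2 transcript the cells used was not tested, and the change with Bru does not depend on it if the transcript mix stayed the same.

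SMAD7 (ENSG00000101665, chromosome 18 from 48919853 to 48952052, minus strand), the inhibitory SMAD, was higher in the Bru library of both lines and differed most between the lines. In U251 it went from 1.11 FPKM (117 reads) in Control to 1.62 (151 reads) in Bru, and in U87 from 9.43 (858 reads) to 12.3 (1075 reads). Both U87 values lay far above both U251 values. SMAD7 in Bru was 1.46 times Control in U251 (interval from 1.14 to 1.88) and 1.30 times in U87 (from 1.19 to 1.42), log2 ratios on FPKM + 0.1 of 0.51 and 0.38. Of all genes, 86.0% and 91.3% had lower log2 ratios than SMAD7. The difference between lines was 0.17 for SMAD7 with an interval from -0.22 to 0.55, so that unequal responses were not detectable at this depth. Against the nearly level SMAD3, SMAD7 went from 0.0616 to 0.0863 in U251, a change of 1.40-fold (from 1.09 to 1.81), and from 0.551 to 0.752 in U87, a change of 1.37-fold (from 1.23 to 1.52). With the longest coding transcript for both genes, the SMAD7 to SMAD3 ratio was 0.0480 in U251 Control and 0.429 in U87 Control.

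The lines differed more than the conditions did. Between the Control libraries, 5 of the 9 members were over 2-fold higher in U87, among 14.5% of all genes, and 1 was over 2-fold lower, among 16% of all genes. SMAD2 is 1 of these 5 and passed the limit on FPKM through U87, where it is high, so its count is not independent of that limit. SMAD7 was 8.51-fold higher in U87 Control (interval of the log2 ratio from 2.81 to 3.38), SMAD2 was 3.38-fold, LTBP2 3.20-fold, TGFBR1 2.67-fold and TGFBR2 2.07-fold higher. LTBP1 was 1.89-fold higher. TGFB2 was the member that stood lower, at 0.451 times the U251 Control level (interval of the log2 ratio from -1.40 to -0.91). TGFB1 and SMAD3 differed little, with log2 ratios of U87 to U251 Control of -0.06 (from -0.13 to 0.01) and -0.07 (from -0.14 to 0.0006). Between the Bru libraries the members again spanned a wide range, and 5 were over 2-fold higher in U87 (14.3% of all genes), SMAD2 again among them. There 0 were over 2-fold lower (15%), since TGFB2 stood at 0.577 times its U251 level.

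By FPKM, the order of the members was TGFB1, SMAD3, TGFBR2, LTBP1, TGFBR1, TGFB2, LTBP2, SMAD7, SMAD2 and INHBA in U251 Control. In U87 Control it was TGFB1, TGFBR2, SMAD3, LTBP1, TGFBR1, SMAD7, LTBP2, SMAD2, TGFB2 and INHBA. The change in order follows the higher receptor, SMAD7 and SMAD2 levels and the lower TGFB2 level of U87. The rank of SMAD2 rests on its length. At the transcript of 12075 bases it would stand at 3.00 FPKM in U251 Control, above LTBP2 and SMAD7, which stood at 1.75 and 1.26 at their longest coding transcripts. In U87 Control it would stand at 10.2, above the deposited value of SMAD7 but below the 10.7 of SMAD7 at its longest coding transcript.

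Among 7126 protein-coding genes with an average FPKM of 5 or more, the genes nearest to TGFB1 in their pattern over the 4 libraries were FKBP8, GGT7 and ERRFI1, at Euclidean distances of 0.03, 0.05 and 0.05 on the centred log2 scale. Nearest to TGFB2 were NUP58, PIP5K1A and GCLC at distances of 0.14, 0.14 and 0.16, and nearest to INHBA were GADD45B, MIS12 and FAM208B at 0.05, 0.11 and 0.14. Each pattern spans 4 libraries, and that of INHBA rests on at most 19 reads a library. The patterns use FPKM + 0.1, which flattens that of INHBA, whose U87 log2 ratio is 0.55 on this scale and 1.93 from reads.

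Other genes of the superfamily were grouped in lists by role. Their counts past 2-fold stand beside shares of all genes of 3.36% higher and 5.44% lower in U251 and of 1.92% and 1.41% in U87. Of 10 other TGF-beta and activin ligands, 1 reached an average FPKM of 1, GDF11, at a log2 ratio of -0.42 in U251 and of -0.33 in U87. Of 20 BMP and GDF ligands 4 did, and 2 of them were lower past 2-fold in U251 and none in U87 (0 of 4), with medians of -0.70 and -0.01. These 4 include BMP2, which passed through U87, and BMP6, which passed through U251 and was listed at 0 in both U87 libraries, the latter named after its values were seen. GDF15, a stress-induced member of the family, went from 142 to 13.9 FPKM with Bru in U251, a log2 ratio of -3.34, and from 53.9 to 67.0 in U87, a log2 ratio of 0.31. AMH, the anti-Mullerian hormone, had log2 ratios of -1.07 and -0.04. BMP2 was barely detected in U251, with 2 reads in Control and 0 in Bru against a floor of 3, and had a log2 ratio of -0.02 in U87.

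Of the genes that hold or release the latent ligand, most had a log2 ratio below 0. Of the 16 expressed genes in the list of latency and activation, 15 had a log2 ratio below 0 in U251 (52.1% of all genes) and 8 were lower past 2-fold there (5.44%), with a median of -0.97. In U87, 13 had a log2 ratio below 0 (56.7% of all genes), 0 were lower (1.41%) and 1 was higher (1.92%) past 2-fold, with a median of -0.41. PLAU, the urokinase that activates plasmin, had a log2 ratio of -1.87 in U251 and one of -0.61 in U87. The integrin subunits ITGB5 and ITGB8, which pair with the alpha V subunit to release TGF-beta, had log2 ratios of -1.86 and -0.65 and of -1.38 and -0.80. The gene past 2-fold in U87 was THBS1, the thrombospondin that activates the latent complex, named here after its values were seen. THBS1 went from 0.169 to 0.489 FPKM there and from 60.8 to 42.4 in U251, and like ITGB8 it passed the limit through U251. NRROS and ITGB3, also named after their values were seen, passed the limit through U87. In U251 NRROS had 1 and 3 reads, and ITGB3, with 135 and 40, was among the 8 lower past 2-fold. Among the 14 genes of the list that averaged 1 or more within U87, 12 were below 0 and 0 passed 2-fold, and among the 15 within U251, 7 were lower past it, an alternative chosen after the data were seen.

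Among 10 other receptors and co-receptors, 1 was lower past 2-fold in U251 (5.44% of all genes) and 0 passed it in U87, with medians of -0.34 and -0.19. It was ENG, the endoglin co-receptor, with log2 ratios of -1.07 and -0.34, which passed the limit through U87 and had 97 and 37 reads in U251. BAMBI, a decoy receptor without a kinase and itself a known target of the pathway, was higher in the Bru library of both lines, with log2 ratios of 0.82 (from 0.54 to 1.15, the interval again without a pseudocount) in U251 and 0.67 (from 0.44 to 0.92) in U87. CD109, a co-receptor that dampens TGF-beta signalling, had log2 ratios of -0.63 and -0.08.

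None of the 4 other SMADs with an average FPKM of 1 or more passed 2-fold (0 of 4 in each line), and their medians were -0.21 and -0.34. SMAD6, the other inhibitory SMAD, went against SMAD7, with log2 ratios of -0.44 (from -0.68 to -0.24) in U251 and -0.41 (from -0.57 to -0.26) in U87. SMAD1 had log2 ratios of -0.32 and -0.36 and SMAD5 of 0.31 and 0.14, both mediators of BMP signalling. The 13 cofactors and turnover factors had medians of -0.02 and -0.01, with 0 past 2-fold in either line. The ones furthest from 0 on average were the corepressor SKI, at -0.42 and -0.20, and the ubiquitin ligases SMURF1, at -0.41 and -0.20, and WWP1, at -0.27 and -0.34.

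Of 8 expressed secreted antagonists, 6 had a log2 ratio below 0 in U251 (52.1% of all genes) and 8 did in U87 (56.7%), with medians of -0.90 and -0.40. FSTL3 was above 0 in U251, at 0.39, and GREM1 was listed at 0 in both U251 libraries. The U87 median was -0.15 without the limit on FPKM, and near-level genes such as CRIM1, at -0.02, count among the 8, these 3 genes being named after their values were seen. Past 2-fold, 2 were lower in U251 (FST and CHRDL1, beside 5.44% of all genes) and 1 in U87 (CHRDL1, beside 1.41%). CHRDL1 passed the limit through U251, so that 0 of the 8 antagonists averaging 1 or more within U87 passed 2-fold. FST, the follistatin that binds activin, went from 714 to 89 reads with Bru in U251, a log2 ratio of -2.75, and had one of -0.44 in U87. CHRDL1, a BMP antagonist, had log2 ratios of -2.01 and -1.12, the latter from 42 and 15 reads, and the protease HTRA1 had log2 ratios of -0.85 and -0.95.

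The list of SMAD2/3 target genes was not uniform. Of 20 expressed genes, 6 were lower (5.44% of all genes) and 0 higher (3.36%) past 2-fold in U251, with a median of -0.47. In U87, 3 were lower (1.41%) and 0 higher (1.92%), with a median of 0.03. Below 0 were 15 of the 20 in U251 (52.1% of all genes) and 9 in U87 (56.7%). The 3 in U87 were the matrix genes COL1A2, with a log2 ratio of -1.64 in U251 and one of -2.04 in U87, FN1, with -1.45 and -1.58, and COL1A1, with -0.50 and -1.17. COL1A1 passed the limit on FPKM through U87. The other genes past 2-fold in U251, named after their values were seen, were CTGF, CDKN1A, PMEPA1 and TGFBI, with log2 ratios of -1.46, -1.48, -1.46 and -1.09. In U87 these 4 genes had log2 ratios of -0.13, 0.66, 0.22 and -0.15. Above 0 were 5 of the 20 genes in U251 and 11 in U87, among the latter NEDD9, with 0 and 1 reads there. SNAI2 and KLF10, also named after their values were seen, were above 0 in both lines, at 0.77 and 0.36 and at 0.78 and 0.24. TAGLN and ACTA2, also named after their values were seen, passed the limit on FPKM through U87, like COL1A1, and NEDD9 through U251. A limit of 1 within the line, chosen after the data were seen, left 18 genes in U251 and 19 in U87. Of these, 14 and 9 were below 0.

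Among 8 BMP target genes, 3 were higher (3.36% of all genes) and 0 lower (5.44%) past 2-fold in U251, with a median of 0.66. In U87, 0 passed it (1.92% of all genes higher and 1.41% lower), and the median was 0.01. ID2, an inhibitor of differentiation, went from 15.0 to 50.6 FPKM with Bru in U251, a log2 ratio of 1.75, and had one of 0.01 in U87. The others were MSX2, at 1.48 in U251, and ID4, named after its values were seen, at 1.37. MSX2 had 1 read in each U87 library and ID4 was listed at 0 in both, so that neither could be compared there, and the 6 other genes had a median of -0.10 in U87. ATOH8 had log2 ratios of -0.74 and -0.65. ID1 and ID3, named after their values were seen, were higher in the Bru library of U251 and lower in that of U87. ID1 had log2 ratios of 0.37 (from 0.30 to 0.44, without a pseudocount) and -0.42 (from -0.48 to -0.37). ID3 had log2 ratios of 0.57 (from 0.49 to 0.64) and -0.22 (from -0.30 to -0.14).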

How the data were processed

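RNA of 4 single libraries was analysed. Per the labels, libraries were made from total RNA with an NEB Next Ultra kit and read as Illumina paired ends. The submitters' processing notes name HISAT2 2.0.5, StringTie 1.3.3b, featureCounts 1.5.0-p3 and DESeq2 1.16.1, without roles. The authors deposited FPKM per gene with the gene length in bases. The notes name hg18, but start and end of 58724 of 58735 genes equal those of GENCODE release 29, so coordinates here are GRCh38. FPKM times length was a whole multiple of 1 step for 100% of values above 0 (tolerance 0.001 reads), which gave the reads and the library sizes inside the FPKM, 17406238 to 20974002.

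Log2 ratios use FPKM + 0.1, which understates changes at low levels, for genes whose FPKM averaged 1 or more. Intervals are Clopper-Pearson intervals of the reads' share in 1 library, and exact conditional intervals of the odds ratio for differences between lines (scipy 1.17.1). The reads carry no molecular identifiers. No p-value is given, since each group has 1 library. The scripts were tested on simulated data. The members, lists and motifs were chosen with earlier results of these data known. Named genes are the members, the 3 genes of each list with the largest mean change, the genes nearest to each ligand and genes overlapping a member, with exceptions stated, and for the cell type markers also VIM, SOX2, GFAP, OLIG2, CHI3L1, S100B and KDR, and overlapping genes with few or no reads left out. Protein sequences were not used here.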

Additional observations from a re-analysis of the deposited data

Results flagged for a closer look

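Log2 ratios of Bru to Control are listed where they had opposite signs in the lines, or differed by over 2-fold with an interval that excluded 0. They are given as U251 minus U87 from reads, for the members and for the pathway genes named in the text with over 3 reads in each library. Other genes of the lists were not screened, and naming by the mean change over both lines passes over genes whose changes cancel. Examples outside this screen with opposite signs are FBN2, ID1 and ID3, named after their values were seen. FBN2 had log2 ratios of -0.83 in U251 (interval from -1.10 to -0.68) and 0.59 in U87 (from 0.43 to 0.82). SMAD3 had opposite signs with a difference of 0.13, but as deposited its interval included 0 in each line. The difference was not tested over replicates, as each line has 1 library per condition. GDF15 also had opposite signs, with a difference of -3.66 (95% interval from -3.81 to -3.50). FST differed by -2.38 (from -2.81 to -1.95), PLAU by -1.26 (from -1.37 to -1.15), ITGB5 by -1.22 (from -1.36 to -1.08) and AMH by -1.04 (from -1.26 to -0.81). The interval of AMH reaches under 2-fold. ID2 differed by 1.74 (from 1.56 to 1.92). Among genes named after their values were seen, CDKN1A, THBS1 and PMEPA1 had opposite signs, with differences of -2.14 (from -2.28 to -2.01), -2.05 (from -2.73 to -1.41) and -1.70 (from -2.13 to -1.28), and CTGF differed by -1.33 (from -1.44 to -1.22). FSTL3 also had opposite signs, with a difference of 0.45 (from 0.14 to 0.76). For PMEPA1 and FSTL3 the sign in U87 was within counting error, at 0.22 (from -0.17 to 0.66) and -0.05 (from -0.34 to 0.23).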

How the results depend on the processing

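Within a line no test was possible, because each group has 1 library. A paired fit over both lines, with the line as a block, would leave 1 residual degree of freedom and was not run. Under other pseudocounts, scalings and filters, 0 of the members that passed the filter were past 2-fold with Bru in either line, and their median ranged from -0.33 to -0.18 (U251) and from -0.11 to -0.05 (U87). The counts below 0 stayed at 6 and 7, except with a mean FPKM of at least 5, where fewer members were left and they were 4 and 5. LTBP2 in U251 moved to -0.46 with a pseudocount of 1. INHBA, left out of these counts by the filter except where none was set, went in U87 from 0.55 to 1.11 as TPM and 1.52 with a pseudocount of 0.01, and in U251 from 0.31 to 0.51 as TPM. For the other 9 members, log2 ratios moved by at most 0.09 in U251 and 0.06 in U87 through scaling, which decided whether the intervals of TGFB1 and TGFBR1 in U87 and of TGFB2 and SMAD3 in U251 included 0. With a pseudocount of 1, 0 members in place of 1 were over 2-fold lower in U87 Control than in U251 Control, and as TPM, 4 in place of 5 were over 2-fold higher. The all-gene counts depended on the filter. Without one, 2424 genes were higher and 2539 lower past 2-fold in U251 and 2531 and 1804 in U87, against 435, 705, 249 and 183, and with a mean FPKM of at least 5 they were 150, 323, 38 and 45. A pseudocount of 1 gave 197, 419, 113 and 77, and protein-coding genes alone gave 223 higher in U251 and 32 and 64 in U87.

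Some list medians changed sign or moved by over 1.5 times. With the median log2 ratio set to 0, cofactors went to 0.00915 in U251 and 0.0336 in U87, and BMP and GDF ligands to 0.0101 in U87. Without a filter, BMP and GDF ligands went to 0.0819 in U251 and 0.212 in U87, and cofactors to 0.00224 in U251, while SMAD2/3 targets and other SMADs in U251 moved to -0.27 and -0.11 and antagonists in U87 to -0.15. With a mean FPKM of at least 5, BMP and GDF ligands and cofactors in U251 moved to -2.20 and -0.27, the other SMADs went to 0.31 and 0.14, and in U87 BMP and GDF ligands went to 0.14, SMAD2/3 targets to -0.0782 and BMP targets to -0.22. With the limit of 1 applied within the line, chosen after the data were seen, the other TGF-beta and activin ligands in U251 went to 0.269, BMP targets in U87 to -0.102 and BMP and GDF ligands in U251 to -1.07.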
